A study of Homo sapiens with 16 samples.

Results

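The transcription factor NRF2 and the antioxidant enzymes it is known to drive were followed as a group of 36 genes in human U2OS cells with and without an edited MDM2. The genes were chosen by name for their known roles, with earlier results of these data known. Their counts beside the share of all genes are therefore a description. The regulators were NFE2L2, KEAP1 and SQSTM1. There were 6 quinone and aldehyde enzymes, 4 genes of heme and iron handling and 9 of glutathione. The rest were 8 of the thioredoxin and peroxiredoxin system, 3 of NADPH supply and export, and 3 of superoxide and peroxide removal. All 36 were among the 28719 genes found in the count tables of both experiments, and all 36 passed the filter on low counts.

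U2OS cells come from a human bone tumour and keep wild-type p53. Cells of the WT groups were compared with isogenic cells carrying the MDM2 W329G mutation, introduced with CRISPR/Cas9, where MDM2 is the ubiquitin ligase that restrains p53. Each genotype was represented by 2 lines, numbered cells 1 and cells 2, and each was given DMSO or 50 µM 5-fluorouracil (5-FU), an anticancer pyrimidine analog, for 24 h. The whole design was run in 2 experiments sequenced by different vendors, giving 16 poly-A RNA-seq libraries in 4 groups of 4, the WT DMSO, WT 5-FU, W329G DMSO and W329G 5-FU groups. In every group replicates 1 and 2 come from experiment 1 and replicates 3 and 4 from experiment 2, with cells 1 before cells 2. The labels do not say whether a line is 1 clone, whether the mutation is on every MDM2 allele, or whether the experiments used separate cultures. The p-values of the 5-FU responses therefore describe only how these libraries vary. Those of the genotype comparisons describe only how the sums of each line over both experiments vary.

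NRF2, encoded by NFE2L2, is held low in resting cells by KEAP1, an adaptor that delivers it to a cullin ubiquitin ligase. Oxidants and electrophiles modify KEAP1, NRF2 then accumulates, pairs with a small MAF protein and binds the antioxidant response element in front of its targets. Those targets make and recycle glutathione and thioredoxin, supply NADPH, detoxify quinones and epoxides, and store iron, so that mRNA of the targets, more than that of NFE2L2 itself, is the usual readout of the pathway.

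Promoters of genes that differed between the genotypes are shown first, because NRF2 binds the response element in front of its targets. The core searched was TGACNNNGC or its reverse complement GCNNNGTCA, in RefSeq windows of 300 bases (250 before to 50 after each start, GRCh38.p14). A window could be matched for 28 of the 36 genes, and 8 of these held a core: EPHX1, GCLM, GSTP1, KEAP1, ME1, MGST1, PIR and TXNRD1. By window, 9 of 44 (20.5%) held one, against 4687 of 35116 windows of all genes (13.3%). The stretches below are 60 bases each, on the gene's strand and before the start, with the core in capitals, and are given for called genes whose core lies before the start. Not all genes called between the genotypes held such a core. MGST1 and PIR held one only after the start, GPX1 held none in its window, and GSR had no matched window. GCLM and GSTP1 held a core before the start and were not called. The core of ME1, TGACTCAGC, also holds the letters TGACTCA that AP-1 factors bind, and a match is a description of these letters only.
ME1, chr6:83431154-83431213, minus strand: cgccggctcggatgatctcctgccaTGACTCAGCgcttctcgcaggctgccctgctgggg
TXNRD1, chr12:104286905-104286964, plus strand: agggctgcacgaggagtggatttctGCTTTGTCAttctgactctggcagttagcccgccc
TXNRD1, another start, chr12:104215655-104215714, plus strand: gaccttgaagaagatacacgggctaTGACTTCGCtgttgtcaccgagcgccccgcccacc
EPHX1, chr1:225825251-225825310, plus strand: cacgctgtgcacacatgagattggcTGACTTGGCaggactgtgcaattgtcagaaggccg
KEAP1, chr19:10502791-10502850, minus strand: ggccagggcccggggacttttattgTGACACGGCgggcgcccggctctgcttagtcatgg
KEAP1, the neighbouring core, chr19:10502772-10502831, minus strand: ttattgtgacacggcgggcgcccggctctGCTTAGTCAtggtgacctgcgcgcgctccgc

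Library totals ran from 24715999 to 56877328 counts, and mitochondrially encoded genes took 7.14% to 31.84% of the counts. The line numbers did not behave alike in the 2 experiments. Within an experiment the difference between cells 1 and cells 2, taken across genes, correlated between DMSO and 5-FU (WT r = 0.488 and 0.596, W329G r = 0.709 and 0.632). Between the experiments the correlation was negative (WT r = -0.191 under DMSO and -0.302 under 5-FU, W329G r = -0.484 and -0.568). Genotype results are therefore given with the lines as labelled and with the cell numbers exchanged in experiment 2. Of 8 mesenchymal markers 7 reached a mean of 1 CPM, with summed levels of 6365 to 15531 CPM, whereas the 6 epithelial markers summed to 11.4 to 125 CPM. Of 6 blood markers 1 reached a mean of 1 CPM, LYZ, at 37.8 to 126 CPM in experiment 1 and at most 0.0741 CPM in experiment 2, and the 6 summed to 0.906 to 127 CPM. As a reference for the treatment, CDKN1A, the cell cycle inhibitor induced by p53, rose by 2.44 ± 0.17 on the log2 scale (SE) in WT, where the W329G response was 0.71 ± 0.16.

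Levels of the antioxidant genes in U2OS cells spanned more than the range of any comparison. Per kilobase of transcript (mean RPKM of the experiment 1 libraries, where gene lengths were deposited), the ferritin light chain gene FTL stood highest at 1345, followed by the peroxiredoxin gene PRDX1 at 404, the ferritin heavy chain gene FTH1 at 292, PRDX5 at 255 and the glutathione transferase gene GSTP1 at 238. NFE2L2 stood at 9.27 and KEAP1 at 20.3. The lowest were AKR1C1, a ketosteroid reductase gene, at 0.865 and the exporter gene ABCC2 at 0.316. FTL and FTH1 have 16 and 25 named pseudogenes in the tables, which together held a mean of 19.2 and 121 counts per library against 36707 and 17672 for the genes themselves.

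The 2 experiments gave different levels for some of these genes, which bears on any mean over all 4 replicates. GSTP1 lay at 361 to 550 CPM (counts scaled to library size with TMM factors) in the 8 libraries of experiment 1 and at 6.55 to 14.6 CPM in those of experiment 2. SRXN1, the sulfiredoxin gene that repairs overoxidized peroxiredoxins, went the other way, with group means of 4.44 to 7.17 CPM in experiment 1 and 61.5 to 72.7 CPM in experiment 2. In all, 4 of the 36 genes differed by at least 2 on the log2 CPM scale between the experiments (SRXN1, ABCC2, AKR1C1 and GSTP1), where 11.3% of all tested genes did. In the annotation of experiment 1, 85.0% of the exon bases of SRXN1 are shared with another gene on the same strand, and whether this moved its count was not tested. The experiment plot shows GSTP1 and SRXN1 far from the diagonal on opposite sides.

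**Figure D1:**
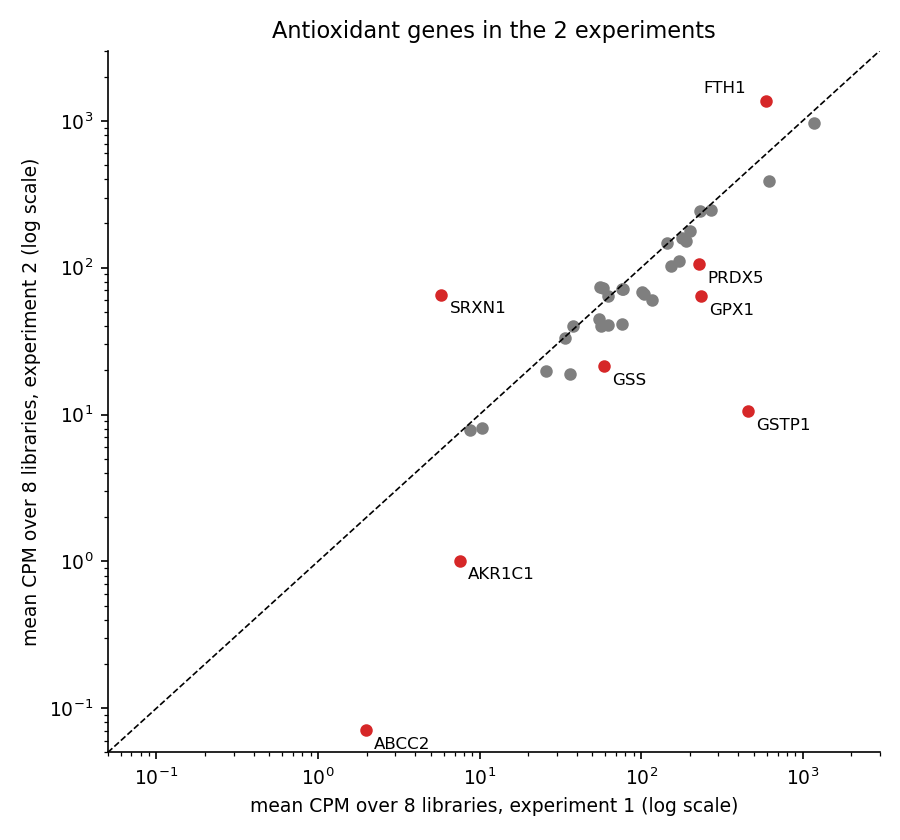
Mean CPM over the 8 libraries of experiment 1 (horizontal log axis) and of experiment 2 (vertical log axis), 1 point per antioxidant gene, with the dashed line at equal values and genes that differ by at least 1 in mean log2 CPM in red and named. GSTP1 lies far below the line and SRXN1 far above it.

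Under 5-FU, 1 of the 36 genes passed the test in WT cells, GPX8, which encodes a peroxidase of the endoplasmic reticulum, and it fell. Across all genes 8.39% passed in this comparison, 4.57% lower. The median log2 fold change of the 36 was -0.09, beside 0.03 over all tested genes. Of the 36, 14 lay above 0 and 22 below, where 53.7% of all genes lay above 0. NFE2L2 itself stood at 49.3, 48.5, 66.4 and 74.6 CPM in the WT DMSO replicates 1 to 4 and at 46.1, 50.7, 66.5 and 64.6 CPM in the WT 5-FU replicates. Its 5-FU and DMSO ranges overlapped, with 2 pairs higher and 2 lower. Members of the heme and iron group had a median of 0.18, from -0.16 for FTH1 to 0.34 for HMOX1, the inducible heme oxygenase, and none of these passed.

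GPX8 (chr5:55160118-55167071, plus strand, GRCh38) was at 141, 165, 167 and 187 CPM under DMSO and at 120, 123, 134 and 119 CPM under 5-FU in WT replicates 1 to 4. Every 5-FU library lay below every DMSO library. The log2 fold change was -0.41 ± 0.11 (SE, edgeR adjusted p = 0.0329), and the call did not survive leaving out WT replicate 1, 2, 3 or 4, where the edgeR adjusted p was 0.0551, 0.125, 0.0612 and 0.241.

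With each 5-FU library set against the DMSO library of the same line and experiment, which the replicate block does, 8 of the 36 passed in WT, 7 lower and 1 higher, beside 24.8% of all genes (12.0% lower and 12.8% higher). GPX1, the cytosolic glutathione peroxidase gene, rose, with 215, 252, 74.9 and 43.7 CPM under DMSO and 344, 348, 96.0 and 91.9 CPM under 5-FU. It was higher in 4 of 4 pairs, at a log2 fold change of 0.64 ± 0.18 (edgeR with the replicate block, adjusted p = 0.0223), while without the block the adjusted p was 0.0707. The genes that fell in the blocked fit were GPX8, GSR (glutathione reductase), TXNRD1 (thioredoxin reductase), ME1 (malic enzyme, a source of NADPH), PIR (pirin, an iron-containing nuclear protein), SOD1 (cytosolic superoxide dismutase) and MGST1 (a membrane-bound glutathione transferase). GSR, at 61.1, 86.4, 71.1 and 62.8 CPM under DMSO, was at 45.0, 61.1, 54.8 and 43.5 CPM under 5-FU. Its fold change was -0.46 ± 0.08 (edgeR with the replicate block, adjusted p = 0.00105), and all 4 pairs were lower under 5-FU. 5-FU libraries lay above their DMSO partner in all 4 WT pairs for 5 genes (HMOX1, FTL, GPX1, SQSTM1 and GSTP1, where 22.7% of all genes did so) and below it in all 4 for 11 genes (background 19.5%).

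**Figure D2:**
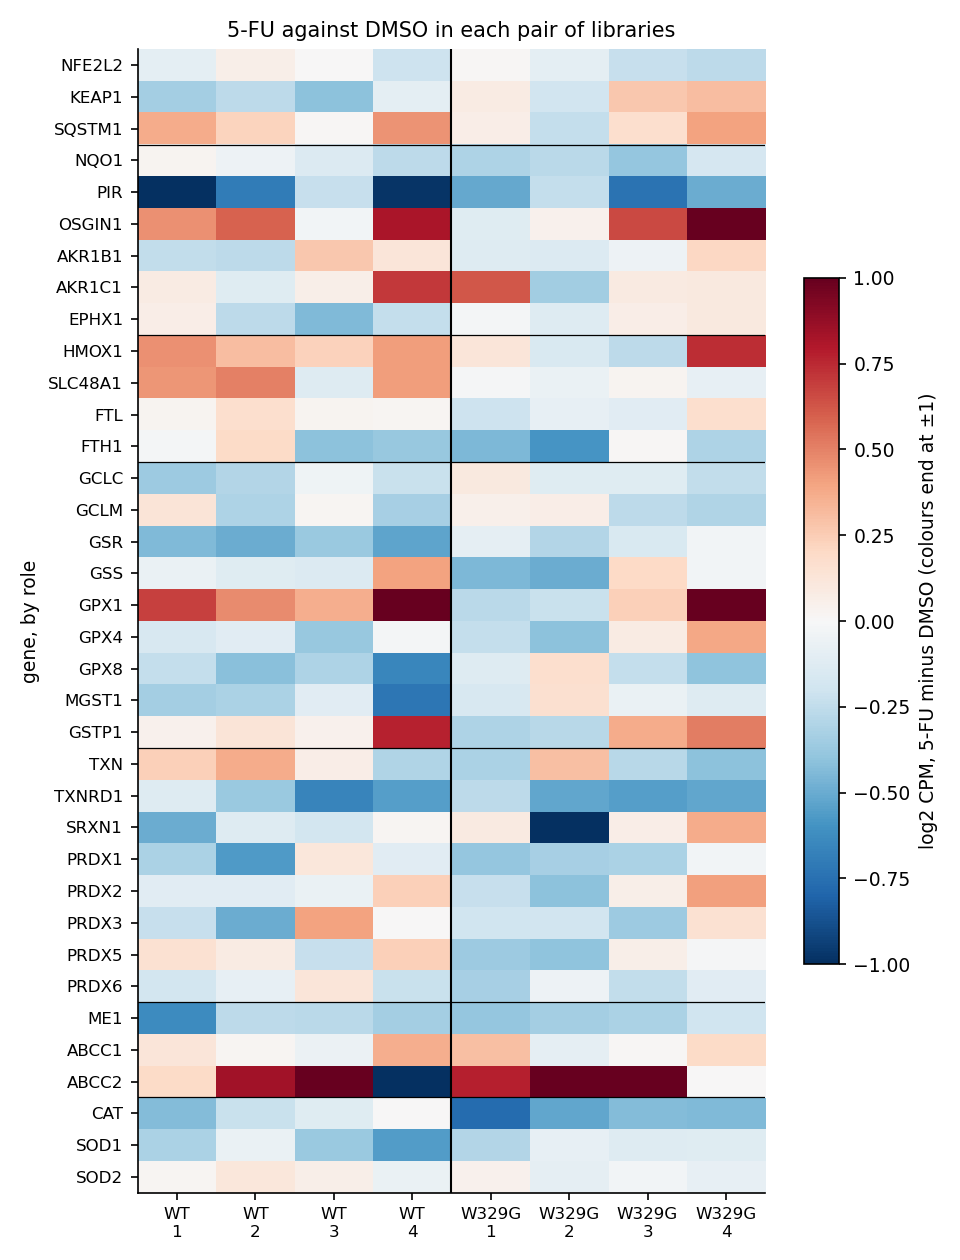
Heat map of the 36 genes (rows, by role) and the 4 pairs of each genotype (columns), where colour gives log2 CPM under 5-FU minus that of the DMSO partner and ends at -1 (blue) and 1 (red). GPX8, GSR and PIR are blue in all 4 WT pairs and GPX1 is red in all 4.

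In W329G cells edgeR called 0 of the 36 genes under 5-FU, where 0.705% of all genes were called. At an unadjusted p under 0.05 there was 1 (background 13.0%), CAT, the gene of the peroxisomal enzyme that breaks down hydrogen peroxide, and DESeq2 called 1, again CAT (background 3.47%). CAT was at 81.1, 55.2, 43.6 and 49.8 CPM under DMSO and at 47.6, 38.4, 32.3 and 36.8 CPM under 5-FU. Each 5-FU library lay below its DMSO partner, though the ranges of the groups overlapped, and the log2 fold change was -0.55 ± 0.14 (edgeR adjusted p = 0.0996). The median over the 36 was -0.10, beside 0.03 over all genes. Of the 36, 10 lay above 0, where 54.3% of all genes did. All 8 thioredoxin and peroxiredoxin genes had values below 0, from -0.44 for TXNRD1 to -0.05 for PRDX2. With the replicate block 5 genes passed, NQO1 (the quinone reductase often read as an NRF2 target), TXNRD1, ME1, PIR and CAT, and all 5 fell, beside 10.6% of all genes (5.47% lower). CAT fell by 0.54 on the log2 scale in that fit (edgeR with the replicate block, adjusted p = 0.00445). Libraries under 5-FU were lower in all 4 W329G pairs for 9 of the 36 genes (background 16.4%) and higher in all 4 for 0 (background 17.8%).

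The test of the difference, W329G response minus WT response, called 0 of the 36 genes in edgeR, where it called 1.16% of all genes, and 1 (KEAP1) had an unadjusted p under 0.05, as 9.24% of all genes did. DESeq2 called 0 of the 36 and 2.88% of all genes, and edgeR with the replicate block called 0 of the 36 and 6.04% of all genes. The fitted differences ran from -0.43 for GPX1 to 0.45 for ABCC2, with a median of -0.03. KEAP1 (chr19:10486120-10503741, minus strand) was at 79.5, 83.9, 45.9 and 38.4 CPM in WT under DMSO and at 62.9, 70.0, 34.5 and 35.8 CPM under 5-FU. In W329G it was at 79.4, 80.6, 41.6 and 37.8 CPM under DMSO and at 84.0, 70.8, 50.0 and 47.0 CPM under 5-FU. WT libraries were lower under 5-FU in 4 of 4 pairs and W329G libraries higher in 3 of 4, and the difference was 0.40 ± 0.15 on the log2 scale (edgeR adjusted p = 0.327). CDKN1A, by contrast, had a difference of -1.74 ± 0.23 and passed.

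Untreated W329G cells had higher levels than WT cells of ME1 and MGST1, and 2 of 36 genes passed the test, where 1.38% of all genes passed and 0.434% were higher in W329G. The median log2 fold change over the 36 was 0.21 beside 0.00 over all tested genes. Of the 36, 26 lay above 0, where 49.8% of all genes did. All 6 quinone and aldehyde enzymes lay above 0 (median 0.48). These comparisons sum the counts of a line over both experiments, so that each genotype has 2 sums per treatment. They share the same lines, hence the values under DMSO and under 5-FU stand side by side as separate measurements of the same cells.

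ME1 (chr6:83210389-83431071, minus strand) was at 22.0, 37.8, 29.1 and 23.7 CPM in WT and at 51.8, 40.2, 41.9 and 50.6 CPM in W329G under DMSO. All 4 W329G libraries lay above all 4 WT libraries, and the log2 fold change was 0.68 ± 0.12 (edgeR adjusted p = 0.039). MGST1 (chr12:16347142-16609259, plus strand) was at 32.3, 53, 41.6 and 34.3 CPM in WT and at 70.5, 73.0, 55.2 and 59.3 CPM in W329G. Again the groups did not overlap, and the log2 fold change was 0.65 ± 0.13 (edgeR adjusted p = 0.0482). Groups did not overlap with W329G higher for these 2 of the 36 genes, where 1.62% of all genes showed this. With the cell numbers exchanged in experiment 2, edgeR called 0 of the 36 genes, with 3 at an unadjusted p under 0.05 (PRDX3, ME1 and MGST1, background 7.79%), and 0.0114% of all genes. With the lines as labelled, the log2 fold change of ME1 was 0.58 without WT cells 1 and 0.77 without WT cells 2. It was 0.67 without W329G cells 1 and 0.70 without W329G cells 2. For MGST1 these values were 0.56, 0.72, 0.68 and 0.61. Each such fit leaves 1 sum per treatment in a genotype, so it cannot show whether a call holds.

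**Figure D3:**
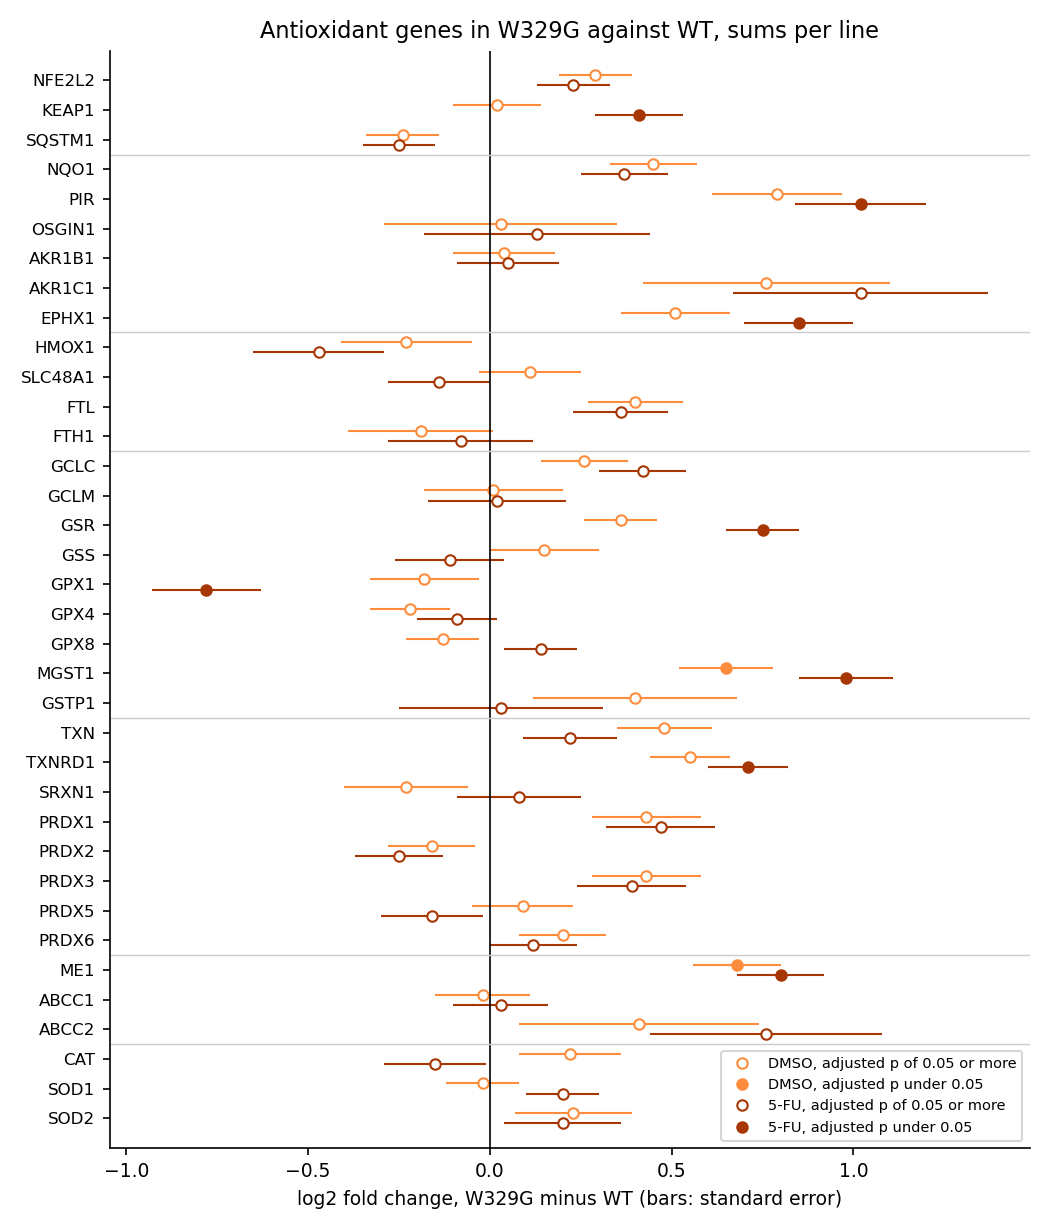
Log2 fold change of W329G over WT (horizontal axis) for each of the 36 genes under DMSO (light) and 5-FU (dark), fitted on counts summed per line as labelled, with bars of 1 SE and filled points for an adjusted p under 0.05. Under DMSO ME1 and MGST1 are filled, and under 5-FU 7 genes above 0 and GPX1 below 0.

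Among the treated cells 7 of the 36 genes were higher in W329G and 1 was lower, where 14.3% of all genes passed, 7.23% higher and 7.08% lower. The 7 were MGST1, GSR, ME1, TXNRD1, EPHX1 (microsomal epoxide hydrolase), PIR and KEAP1, and GPX1 was the one that was lower. The median of the 36 was 0.17, beside -0.01 over all genes. MGST1 was at 25.4, 42.5, 38.7 and 20.8 CPM in WT and at 63.0, 81.8, 52.7 and 54.0 CPM in W329G, with every W329G library above every WT library. The log2 fold change was 0.98 ± 0.13 (edgeR adjusted p = 0.00199). Under DMSO the log2 fold changes were 0.36 for GSR, 0.55 for TXNRD1, 0.51 for EPHX1 and 0.79 for PIR, and none of these passed. KEAP1 stood at 0.02 and GPX1 at -0.18 under DMSO, and neither passed.

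GSR was at 96.3, 72.6, 72.5 and 91.3 CPM in W329G under 5-FU, above the WT libraries given above (43.5 to 61.1 CPM). It differed by 0.75 ± 0.10 on the log2 scale (edgeR adjusted p = 0.00208). ME1 was at 14.2, 31.6, 24.2 and 18.8 CPM in WT and at 39.5, 31.7, 33.6 and 44.0 CPM in W329G. The lowest W329G library and the highest WT library of ME1 nearly touched, at 31.7 and 31.6 CPM, and its log2 fold change was 0.80 ± 0.12 (edgeR adjusted p = 0.00431). GSR, ME1 and MGST1 were the 3 of the 36 genes whose groups did not overlap with W329G higher, where 6.10% of all genes showed this.

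TXNRD1 (chr12:104215779-104350305, plus strand) was at 109, 214, 165 and 137 CPM in WT and at 327, 166, 196 and 285 CPM in W329G, and these ranges overlapped. Its log2 fold change was 0.71 ± 0.11 (edgeR adjusted p = 0.00457). PIR (chrX:15384799-15493564, minus strand) was at 4.56, 5.38, 6.45 and 3.48 CPM in WT and at 14.8, 8.36, 5.47 and 10.8 CPM in W329G. Replicate 3 of W329G lay within the WT range of PIR, and the log2 fold change was 1.02 ± 0.18 (edgeR adjusted p = 0.0077). EPHX1 (chr1:225810092-225845563, plus strand) was at 44.7, 47.0, 31.7 and 28.7 CPM in WT and at 111, 42.0, 31.4 and 66.4 CPM in W329G. In EPHX1 W329G replicates 1 and 4 stood above every WT library, and replicates 2 and 3 lay within the WT range. Its log2 fold change was 0.85 ± 0.15 (edgeR adjusted p = 0.00704). The line sums joined replicates 1 and 3, and 2 and 4, so high and low W329G libraries were added together. The SE therefore describes the sums and not the spread among libraries. With cell numbers exchanged in experiment 2, the log2 fold change of EPHX1 was 0.79 ± 0.50 (edgeR adjusted p = 0.493). That of PIR was 0.98 ± 0.43 (edgeR adjusted p = 0.321) and that of TXNRD1 0.68 ± 0.36 (edgeR adjusted p = 0.415). With the lines as labelled, KEAP1 differed by 0.41 ± 0.12 (edgeR adjusted p = 0.0485), and with single libraries and a term for experiment by 0.35.

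GPX1 (chr3:49357176-49358600, minus strand) was lower in W329G under 5-FU, at 175, 154, 60.8 and 64.4 CPM against 344, 348, 96.0 and 91.9 CPM in WT. Within each experiment the W329G libraries lay below the WT libraries, and the log2 fold change was -0.78 ± 0.15 (edgeR adjusted p = 0.0116). In experiment 1 alone it was -1.08 (adjusted p = 0.0242) and in experiment 2 alone -0.58 (adjusted p = 0.526). GPX1 has 2 named pseudogenes in the tables, which held a mean of 338 counts against 6801 for the gene.

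**Figure D4:**
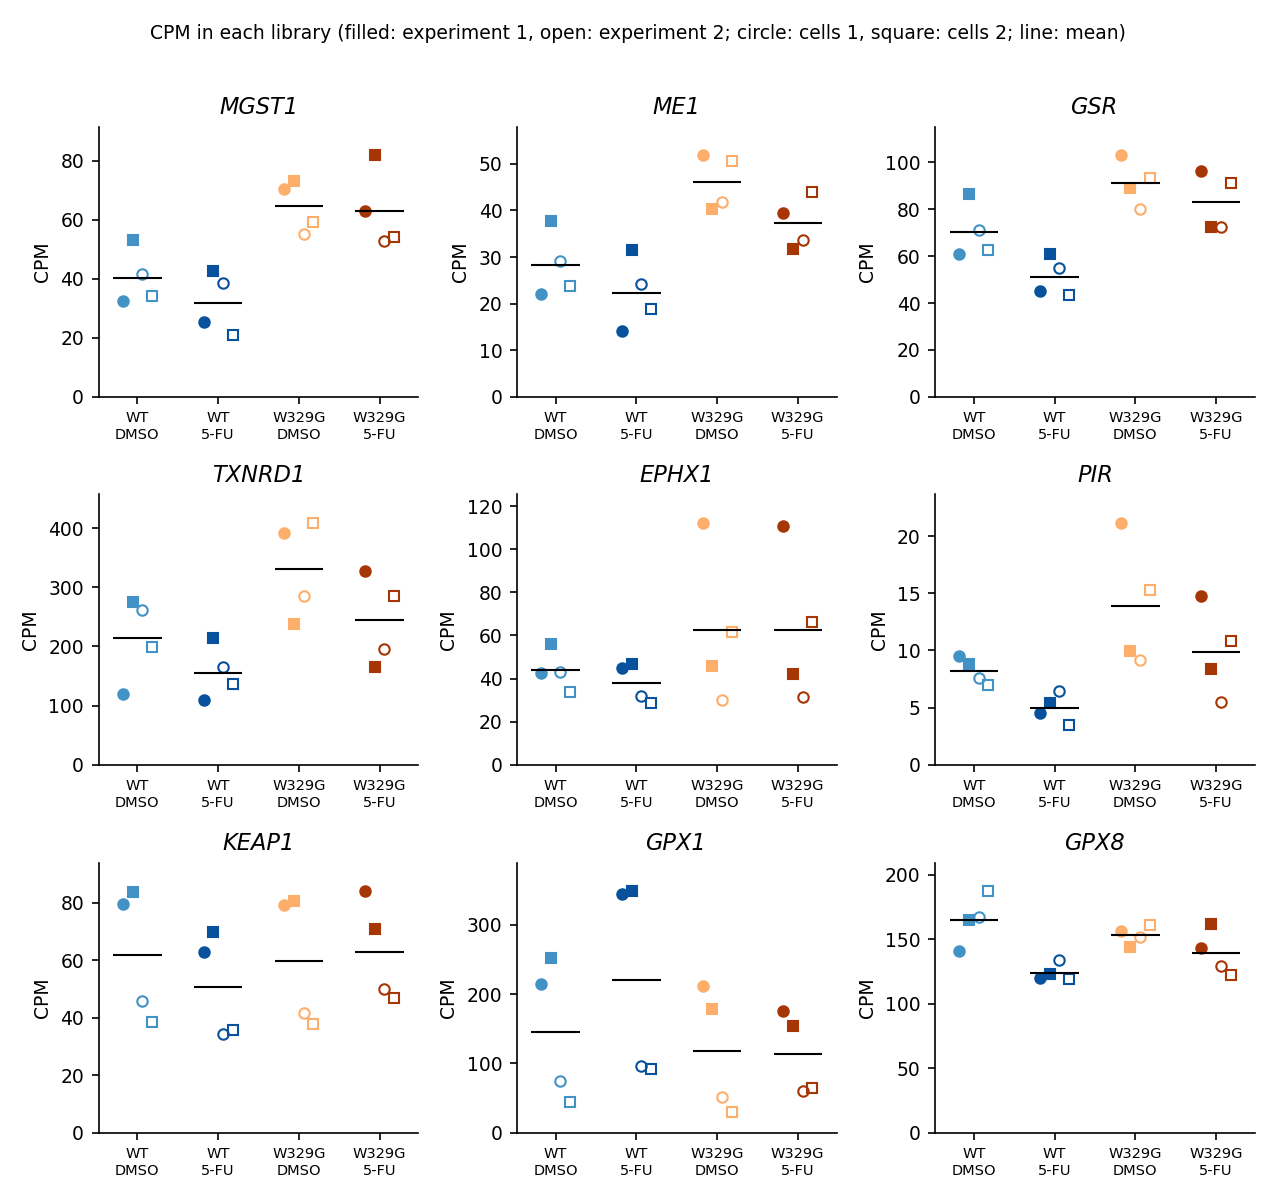
CPM of 9 genes in each library, by genotype and treatment, with filled symbols for experiment 1, open symbols for experiment 2, circles for cells 1, squares for cells 2 and a line at the mean of the 4 replicates. MGST1 and GSR are higher in every W329G 5-FU library than in every WT 5-FU library, and EPHX1 and PIR of W329G are highest in replicates 1 and 4.

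These calls rested on which libraries were taken as one line. With the cell numbers exchanged in experiment 2 edgeR called 0 of the 36 genes under 5-FU, with 6 at an unadjusted p under 0.05 (KEAP1, GSR, ME1, GPX1, AKR1C1 and MGST1, background 16.1%), beside 1.27% of all genes, while the fold changes of MGST1 and GPX1 were then 0.99 and -0.78. Without W329G cells 1 the log2 fold change was 1.07 for MGST1 and 0.71 for EPHX1. Without W329G cells 2 it was 0.89 for MGST1 and 0.99 for EPHX1. These fits leave 1 W329G sum per treatment, so they cannot show whether a call holds. The other regulators did not pass. NFE2L2 was at 66.7, 59.5, 78.8 and 94.8 CPM in W329G under DMSO, with a log2 fold change over WT of 0.29 ± 0.10 (edgeR adjusted p = 0.166). It was at 67.4, 55.4, 67.1 and 79.2 CPM in W329G under 5-FU, with 0.23 ± 0.10 over WT (edgeR adjusted p = 0.156). SQSTM1, the autophagy receptor that can bind KEAP1, had log2 fold changes of -0.24 under DMSO and -0.25 under 5-FU.

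In all, 28 of the 36 genes passed in neither genotype comparison. Of all genes 1.38% passed under DMSO and 14.3% under 5-FU, so most genes passed in neither. The 28 is therefore a count only. Most of the 8 thioredoxin and peroxiredoxin genes lay above 0, 6 under DMSO (median 0.32) and 6 under 5-FU (median 0.17). Of all genes 49.8% and 49.0% lay above 0. PRDX1, a cytosolic peroxiredoxin gene, was at 0.43 ± 0.15 and 0.47 ± 0.15. NQO1 had log2 fold changes of 0.45 ± 0.12 (edgeR adjusted p = 0.106) under DMSO and 0.37 ± 0.12 (edgeR adjusted p = 0.0817) under 5-FU. The 2 subunit genes of glutamate-cysteine ligase, which starts glutathione synthesis, were not called: GCLC, the catalytic subunit, was at 0.26 ± 0.12 and 0.42 ± 0.12, and GCLM, the modifier subunit, at 0.01 ± 0.19 and 0.02 ± 0.19. GPX4, which reduces lipid peroxides, was at -0.22 ± 0.11 and -0.09 ± 0.11. The heme and iron genes had medians of -0.04 and -0.11, from -0.23 and -0.47 for HMOX1 to 0.40 and 0.36 for FTL. SOD1 and SOD2, the cytosolic and mitochondrial superoxide dismutase genes, ranged from -0.02 to 0.23.

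Within 1 genotype and experiment, most of the 36 genes shared 1 direction of difference between the lines under both treatments. A difference that kept its direction under both treatments was common among all genes. In WT of experiment 1, 36.9% of them were higher in cells 1 under both treatments and 34.6% were lower. In WT of experiment 1, 29 of 36 were lower in cells 1 than in cells 2 under both treatments, where 34.6% of all genes were. In WT of experiment 2, 24 of 36 were higher in cells 1 (background 34.6%), and 22 of the 36 switched direction in this way (background 16.3%). In W329G the order was the opposite one: 26 of 36 were higher in cells 1 in experiment 1 (background 37.8%), 19 were lower in cells 1 in experiment 2 (background 34.1%), and 16 did both (background 24.4%). TXNRD1 shows this pattern, with 119 and 276 CPM in cells 1 and cells 2 of WT under DMSO in experiment 1 and 261 and 199 CPM in experiment 2. In W329G it was at 392 and 238 CPM in experiment 1 and at 286 and 408 CPM in experiment 2. FTL, the ferritin light chain gene, was at 721 and 1141 CPM in WT under DMSO in experiment 1 and at 1811 and 1126 CPM in W329G. MGST1 and FTH1 were the 2 genes lower in W329G cells 1 than in cells 2 in both experiments and treatments (background 3.11%).

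The share of mitochondrially encoded counts differed between lines in the same libraries. In experiment 1 under DMSO it was 24.63% and 13.66% in WT cells 1 and cells 2 and 7.14% and 16.4% in W329G cells 1 and cells 2, so that in experiment 1 the line with the lower share had the higher level of most antioxidant genes. In experiment 2 the DMSO shares were 20.68% and 19.91% in WT and 19.75% and 21.7% in W329G, where the relation was the reverse. Under 5-FU in experiment 2 they were 22.56% and 23.96% in WT and 25.65% and 17.99% in W329G, with the lower share again in the line with the higher levels. With those genes removed from the tables, 8 of the 36 genes were called under 5-FU and 2 under DMSO, as many as with them. The share of all genes called in those fits is not given here. The part of this share in the differences between the lines was not tested.

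**Figure D5:**
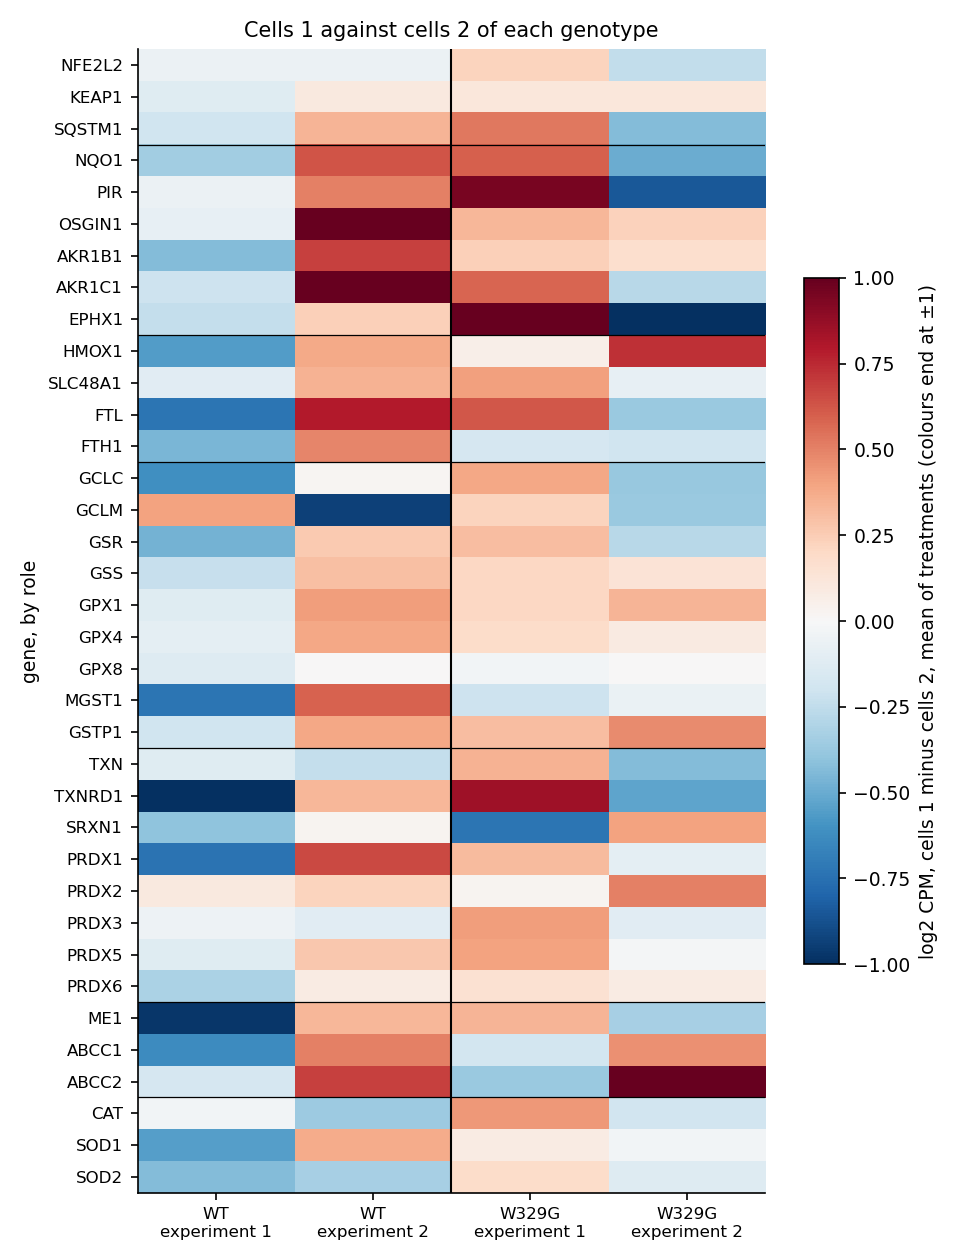
Heat map of the 36 genes (rows, by role) by genotype and experiment (columns), where colour gives log2 CPM of cells 1 minus cells 2, as the mean of the DMSO and 5-FU differences, and ends at -1 (blue) and 1 (red). WT is mostly blue in experiment 1 and red in experiment 2, and W329G is mostly red in experiment 1.

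A further 48 genes were tested, a list of NRF2 targets, partners and other redox genes. Among them were the pentose phosphate enzymes that supply NADPH and the cystine importer SLC7A11 that feeds glutathione synthesis. In WT under 5-FU 2 rose and 1 fell, where 3.81% of all genes rose and 4.57% fell. MAFF, a small MAF partner of NRF2, rose by 1.01 ± 0.23 on the log2 scale and the exporter gene ABCC3 by 0.64 ± 0.18, while PGD, the phosphogluconate dehydrogenase gene, had a value of -0.73 ± 0.12. In W329G under 5-FU edgeR called 0 of the 48 (0.705% of all genes), with 9 at an unadjusted p under 0.05 (13.0% of all genes) and 4 called by DESeq2 (3.47% of all genes). For the difference of the responses edgeR called 0 (1.16% of all genes), with 1 at an unadjusted p under 0.05 (9.24%) and 0 called by DESeq2 (2.88%). The median of the 48 was 0.04 in WT and 0.00 in W329G, beside 0.03 over all genes in both.

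Between genotypes under DMSO edgeR called 0 of the 48 (1.38% of all genes), with 17 at an unadjusted p under 0.05 (18.9% of all genes) and 7 called by DESeq2 (7.28% of all genes). Under 5-FU 6 were higher and 2 lower in W329G, where 7.23% of all genes were higher and 7.08% lower. The 3 higher genes with the smallest p were CBR1, a carbonyl reductase gene (0.89 ± 0.13), NOX4, an NADPH oxidase that makes hydrogen peroxide (1.09 ± 0.17), and TRIM16 (0.64 ± 0.12). SLC7A11 was also higher, at 121, 40.1, 44.8 and 115 CPM in W329G and 23.9, 67.0, 30.2 and 39.2 CPM in WT. Its values were high in W329G replicates 1 and 4 only, the same libraries that were highest for EPHX1, PIR and TXNRD1. The log2 fold change of SLC7A11 was 1.15 ± 0.23 (edgeR adjusted p = 0.013). Each W329G line sum joined a high and a low library of this gene, so this SE does not describe the spread among libraries. The 2 lower genes were GSTM3, a glutathione transferase gene (-0.65 ± 0.17), and TXNIP, the thioredoxin-binding inhibitor (-1.14 ± 0.32).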

How the data were processed

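The authors deposited a table of raw counts per gene for each poly-A TruSeq library. How reads were aligned and counted, and with which strand setting, is not given in the sources used here. Per the submitters' processing notes the build is hg19, but 96.3% of 56898 genes of experiment 1 have the start and end of GENCODE 29 (GRCh38), and coordinates follow the files. All 26 values of experiment 2 with 7 or more digits end in 0, so its largest counts appear rounded. Tables were joined by symbol: 28443 genes directly and 276 through GENCODE 29, with 14 ambiguous symbols left out.

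Counts were tested with edgeR 4.0.16 in R 4.3.3 (quasi-likelihood F test, TMM, filterByExpr, Benjamini-Hochberg over all tested genes, threshold 0.05). The 5-FU responses and their difference used 16 libraries with terms for group and experiment (16445 genes). The genotype comparisons used 8 line sums (17502 genes). The SE of a log2 fold change is its size over the square root of F. For line sums it describes variation among the sums, not among single libraries. The scripts were tested on simulated data. Libraries of 24715999 to 56877328 counts make counting error small, so the number of lines limits precision. DMSO and 5-FU libraries of a line and experiment are the same line and were paired in the replicate block: the difference between lines correlated between treatments at r of 0.488, 0.596, 0.709 and 0.632. Replicate libraries differed beyond counting noise.

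The 36 genes and the lists were chosen with earlier results of these data known. Values are given for all genes called in a comparison and for NFE2L2 and KEAP1, for CDKN1A as a reference, and of each list for up to 3 called genes per direction with the smallest p and a mean of at least 1 CPM. SLC7A11 is named besides, after its values were seen, and a few items are left out of the text. Alternatives were DESeq2 1.42.0 and its size factors, no filter, each experiment alone, no term for experiment, the replicate block, single libraries, limma-voom (limma 3.58.1), exchanged cell numbers, no mitochondrially encoded genes, and leaving out each pair or line. limma-voom with exchanged numbers was chosen after seeing the data.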

Additional observations from a re-analysis of the deposited data

Results flagged for a closer look

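ABCC1, the gene of an exporter of glutathione conjugates, was at 83.1 CPM in W329G 5-FU replicate 3 (cells 1 of experiment 2), while the other 3 libraries of that group lay between 64.1 and 65.1 CPM. The gap to the nearest library was 0.947 of the group's whole range. It was the 1 group of 144 tested (36 genes in 4 groups) in which a single library stood apart, and chance flags about 1 in 20 such groups. In WT replicate 3 ABCC1 was also the highest of its group, at 87.7 CPM under DMSO and 83.9 CPM under 5-FU.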

How the results depend on the processing

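The counts of called antioxidant genes moved with the setting, while in no alternative did a called gene change sign: of the values of single genes under the alternatives, 2394 stayed on the same side of the threshold, 75 lost their call, 46 gained one and 0 reversed. Most of the 2394 belong to genes that had no call to lose, so that number does not describe how stable the calls were. The calls that could be lost were 1 in WT under 5-FU, 2 between genotypes under DMSO and 8 under 5-FU. Each was counted once per alternative. In WT under 5-FU (1 call) DESeq2 called 4 (12.7% of all genes) and the replicate block 8 (24.8%, against 8.39% in edgeR without it), whereas no filter, experiment 1 alone, experiment 2 alone and no term for experiment each gave 0, and leaving out a WT pair gave 0 to 0. In W329G under 5-FU (0 calls) DESeq2 called 1 (3.47% of all genes) and the replicate block 5 (10.6%, against 0.705%). The difference of the responses had 0 calls under every alternative run. For W329G against WT under DMSO (2 calls) DESeq2 gave 8 (7.28% of all genes), the replicate block 4 (3.19%, against 1.38%) and no filter 4. Each experiment alone, limma-voom with the line as block, single libraries, exchanged cell numbers and limma-voom with exchanged numbers gave 0, and leaving out a line gave 0 to 9, the 9 without WT cells 2. For W329G against WT under 5-FU (8 calls) DESeq2 gave 12 (19.1% of all genes, against 14.3%), experiment 1 alone 1, experiment 2 alone 0, limma-voom with the line as block 5, exchanged numbers 0 and limma-voom with exchanged numbers 3. Calls of the genotype fits without a line are not given here, since these fits leave 1 sum per treatment in a genotype. Where no share of all genes stands beside a count, its change cannot be told from a change in calls across all genes.

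In the genotype comparisons the line number is only a number shared between genotypes, and the replicate block gave 10 calls under 5-FU (18.9% of all genes). The cause of these changes was not tested, apart from settings that use fewer samples. ABCC2 and AKR1C1 are low in CPM in experiment 2, which limits their precision there.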

Other observations

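Of 14 redox genes linked to p53, 7 rose under 5-FU in WT cells, where 3.81% of all genes rose. The list was chosen knowing that p53 targets respond in these data, so its direction is not independent evidence. None fell in edgeR (8 at an unadjusted p under 0.05, beside 22.0% of all genes, and 8 called by DESeq2, beside 12.7%), with a median log2 fold change of 1.08. TP53INP1, a p53-induced stress protein with antioxidant activity, was at 11.7, 12.5, 18.1 and 24.6 CPM under DMSO and at 68.3, 65.1, 101 and 140 CPM under 5-FU in WT. The groups did not overlap, and it rose by 2.48 ± 0.15 on the log2 scale. SESN1, the gene of sestrin 1, a stress protein that restrains mTORC1, rose by 1.78 ± 0.15, and FDXR, the ferredoxin reductase gene of mitochondria, by 1.71 ± 0.17. The difference of the responses passed for 5 of 14, all smaller in W329G (0.523% of all genes were), with TP53INP1 at -2.60 ± 0.20, SESN1 at -1.84 ± 0.21 and FDXR at -1.63 ± 0.24. Between genotypes under 5-FU 8 were lower in W329G (7.08% of all genes). Under DMSO edgeR called 0 (1.38% of all genes), with 5 at an unadjusted p under 0.05 (18.9%) and 2 called by DESeq2 (7.28%).

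Of 16 iron and ferroptosis genes 15 were tested. In WT under 5-FU 1 rose (3.81% of all genes did), SAT1, the polyamine acetyltransferase gene, from 17.4, 11.3, 6.73 and 7.03 CPM to 27.4, 26.5, 15.4 and 14.3 CPM, a log2 fold change of 1.02 ± 0.15. In W329G edgeR called 0 (0.705% of all genes), with 2 at an unadjusted p under 0.05 (13.0%) and 1 called by DESeq2 (3.47%). Between genotypes under 5-FU 1 was higher and 2 were lower in W329G (7.23% and 7.08% of all genes). TFRC, the transferrin receptor gene, was higher in W329G than in WT by 0.84 ± 0.13, while SAT1 (-0.81 ± 0.14) and HMOX2, the constitutive heme oxygenase gene (-0.59 ± 0.11), were lower. HMOX2 was also lower under DMSO, at -0.86 ± 0.11, the 1 of 15 called there (0.948% of all genes were called lower).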
